A study of Mus musculus with 9 samples.

Results

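A set of 5 transcripts of the clotting and clot-dissolving systems were followed across 9 expression arrays of mouse lung: F3 (tissue factor) and F2r (the thrombin receptor PAR1) on the side of clotting, and Plaur, Serpinb2 and Anxa2 on the side of plasminogen activation. They were chosen with earlier results of these data known, and found by gene symbol in the annotation of the array. It gives 1 probe to each, so the results rest on 5 of 10012 probes and on 5 of 8841 named genes. The series concerns lung injury caused by mechanical ventilation. It has a control group, a group injected with E. coli lipopolysaccharide (LPS, the endotoxin of Gram-negative bacteria) at a dose of 3 mg/kg, and a group ventilated for 3 h at a pressure of 25 cmH2O, called overventilation, with 3 arrays of total RNA from lung tissue in each. The labels give neither strain, age nor sex, nor the time between injection and sampling, nor whether the controls were anaesthetised or ventilated. Nothing in them says that each array stands for an animal of its own, so the p-values rest on a spread between arrays that may be technical.

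Blood clotting in tissue starts when tissue factor, a membrane protein kept away from plasma in a healthy vessel, binds factor VII, and the cascade that follows makes thrombin. Thrombin turns fibrinogen into fibrin and signals to cells by cutting PAR1. Fibrin is removed by plasmin, which is made from plasminogen by the activators uPA and tPA. The urokinase receptor encoded by Plaur holds uPA on the cell surface, annexin A2 encoded by Anxa2 binds plasminogen and tPA there, and Serpinb2 encodes plasminogen activator inhibitor 2 (PAI-2). Fibrin deposits in the air spaces are a known feature of acute lung injury, in which tissue factor comes from alveolar epithelium and macrophages.

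Because these genes are compared as a set, the sequences before their start sites are shown first, as given by RefSeq in build GRCm38.p6. All 5 genes were found in that table, with 2 overlapping start sites for Serpinb2. Each held at least 1 match to TGANTCA in the 250 bases before its start site. This is a wide form of the AP-1 motif (AP-1 is a dimer of Fos and Jun proteins) that allows any base in the middle. Those letters read alike on both strands. The motifs were chosen after the sequences had been seen. TGANTCA occurred in the same window of 7.82% of 27025 genes and of 6.51% of the 4088 genes with a tested probe and a promoter entry. With only G or C allowed in the middle, F3, F2r, Plaur and Anxa2 held a match and Serpinb2 did not, against 4.82% of those tested genes. The following 27-base stretches show the match in capitals with its flanks, 5′ to 3′ on the gene's own strand, one for each gene other than F3.
F2r, chr13:95618654-95618680, minus strand: cccgaggggcTGAGTCActcccaggct
Plaur, chr7:24462404-24462430, plus strand: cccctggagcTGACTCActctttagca
Serpinb2, chr1:107511319-107511345, plus strand: agtaaaatgtTGAATCAtacaaagaat
Anxa2, chr9:69453578-69453604, plus strand: ccaagttggaTGAGTCAcccagcaggg

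The F3 promoter is shown whole because it held 2 such matches, at 146 and 135 bases before the start site, followed at 112 bases by a match to GGANTTTCC. A site of this form is known from the human tissue factor promoter, where it binds NF-kB proteins. It was in none of the other 4 genes and in 1.44% of tested genes, on either strand. The 250 bases of the plus strand at chr3:121723287-121723536 are given with these 3 matches in capitals.
F3: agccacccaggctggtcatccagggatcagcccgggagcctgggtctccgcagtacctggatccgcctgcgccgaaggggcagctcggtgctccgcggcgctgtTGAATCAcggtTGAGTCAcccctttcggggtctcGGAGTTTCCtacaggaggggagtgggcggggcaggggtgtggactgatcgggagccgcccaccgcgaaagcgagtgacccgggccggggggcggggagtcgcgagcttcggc

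The TGANTCA match lay 204 bases before the start site of F2r, 69 before that of Plaur, 95 before that of Anxa2, and 94 or 181 before those of Serpinb2. The GC box GGGCGG, bound by Sp1, was found in F3, F2r, Plaur and Anxa2, where 59.4% of the tested genes hold it. GCGNGGGCG, the letters of EGR1, occurred in Plaur alone, overlapping GC boxes there, against 9.86% of tested genes. TATAAA occurred in Serpinb2 and Anxa2, against 10.2%. On either strand, the general NF-kB consensus and the cAMP response element TGACGTCA were in none of the 5 windows, with 10.4% and 2.94% of tested genes holding them. A match is a description of the letters and not evidence of binding.

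**Figure D1:**
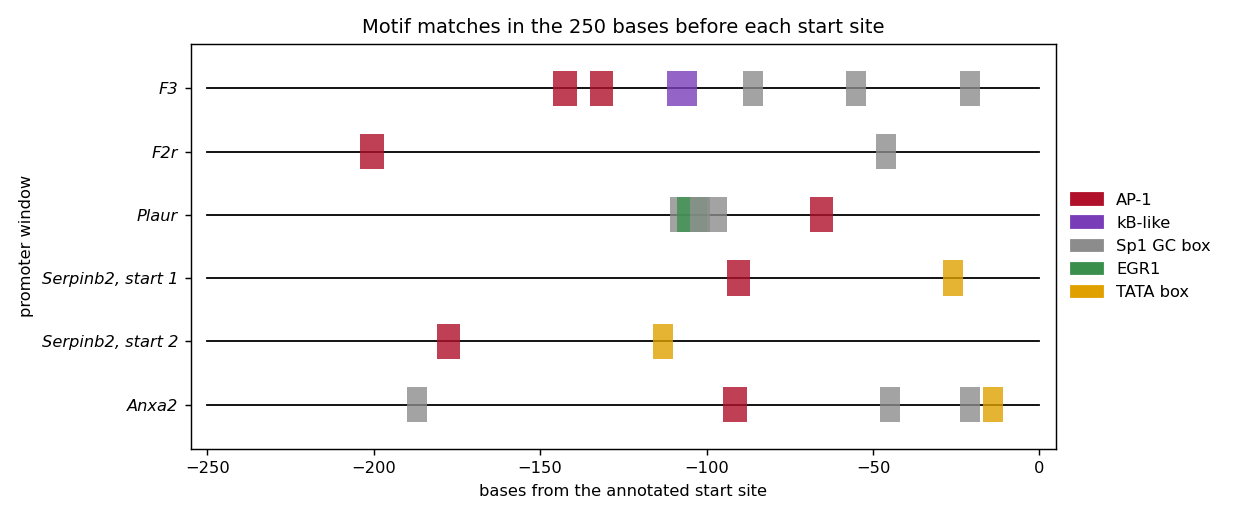
Positions of motif matches in the 250 bases before the annotated start sites, with the x axis in bases from the start site and 1 line per promoter window (Serpinb2 has 2). A red match to TGANTCA (AP-1 with any middle base) is present on every line, and F3 carries 2 of them next to the purple kB-like match. The Serpinb2 match has A in the middle.

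The values on the arrays are ratios to the mean of the 3 controls, given here on the log2 scale, so that the control mean of every gene is 0 and the level of one gene cannot be set against that of another. A smallest measurable value, or floor, showed in the table for probes where 2 or more arrays were at it. None of the 5 genes was among these, so all 5 were tested. A floor value on a single array could not be seen in this way, and their distance from the floor is unknown. Overventilation array 3 carried the highest floor, at a log2 ratio of 1.15 against -0.50 to 0.40 on the other arrays. Over the 5710 tested probes the array medians lay between -0.12 and 0.09.

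The comparison with controls asks what ventilation at high pressure and endotoxin each do to these transcripts. In overventilated lung each of the 5 genes lay above all 3 controls on all 3 arrays, which 9.19% of tested probes did. The median log2 change was 1.68 over the 5 genes, against -0.01 over all tested probes. Because the 5 genes were chosen with earlier results of these data known, these figures describe them and are no independent test. After LPS only Serpinb2 lay wholly above the controls, which 2.24% of tested probes did and which 2 of 3 other scalings ended, and the LPS arrays disagreed with each other for F3, Plaur and Serpinb2. None of the 5 genes passed the test across all probes (limma with Benjamini-Hochberg adjustment) in any comparison. That test called 0 of 5710 probes, or 0%, in either comparison with control and 0% between overventilation and LPS, with 850, 118 and 543 probes at an unadjusted p under 0.05. Without overventilation replicate 2 it called 290 probes against control and 226 against LPS, none of them 1 of the 5 genes. In whole tissue, fewer cells of a type and less RNA per cell cannot be told apart.

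**Figure D2:**
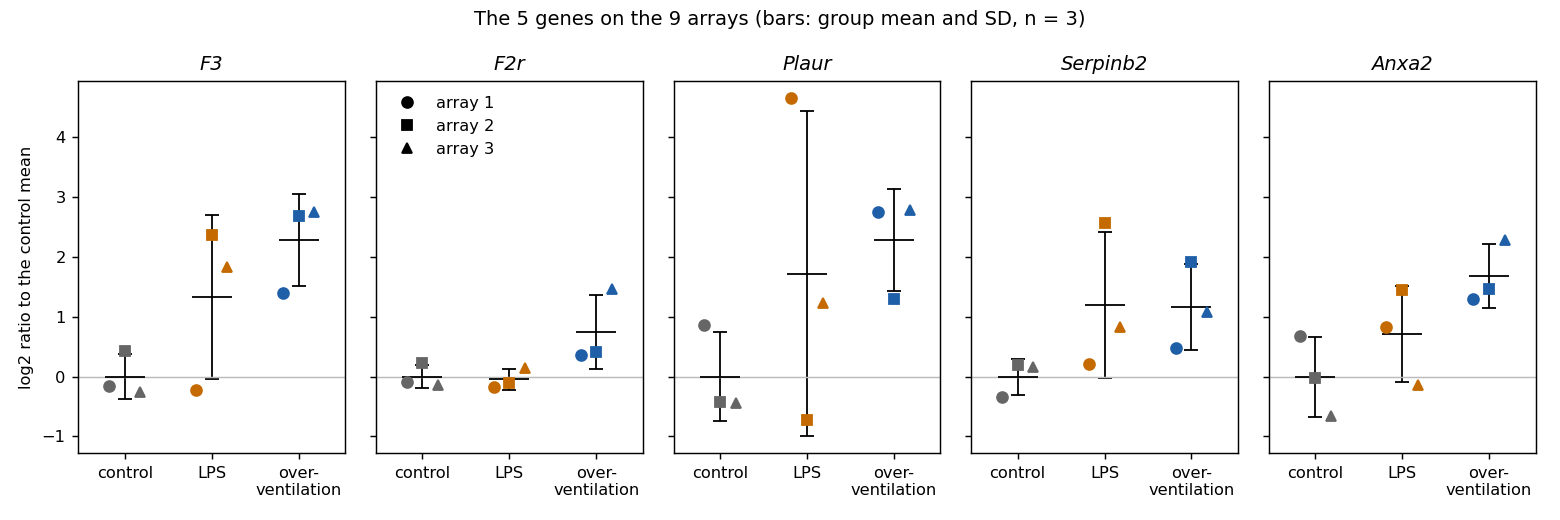
Log2 ratio to the control mean (y axis) of each gene on the 9 arrays, with 1 panel per gene and marker shapes for the array number; bars give the group mean and SD (n = 3). All overventilation points lie above all control points in each panel, while the LPS points of Plaur run from -0.72 to 4.65.

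F3 gave 1.39, 2.69 and 2.76 on overventilation arrays 1 to 3. The controls stood at -0.16, 0.42 and -0.26. LPS arrays 1 to 3 gave -0.23, 2.37 and 1.83. The first LPS array was thus at the control level, and the other LPS arrays were within the range of the overventilated ones. The group means were 2.28 ± 0.77 (SD, n = 3) after overventilation, 1.33 ± 1.37 after LPS and 0 ± 0.37 in controls. The log2 change for overventilation was 2.28 (4.85-fold, 95% interval 0.82 to 3.73, limma adjusted p = 0.201), the 36th highest of 5710. For LPS it was 1.33 (interval -0.13 to 2.78, adjusted p = 1), and 2.10 without LPS replicate 1 or 0.80 without LPS replicate 2. Overventilation exceeded LPS by 0.95 (interval -0.50 to 2.41, adjusted p = 0.644), and by 0.17 without LPS replicate 1 or 1.48 without LPS replicate 2, and the arrays of these groups overlapped.

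F2r, the receptor through which thrombin signals to endothelium and fibroblasts, was the one of the 5 whose LPS mean lay at the control mean. Its LPS arrays gave -0.18, -0.12 and 0.15 and its controls -0.09, 0.23 and -0.13, so the groups overlapped. Overventilation arrays 1 to 3 gave 0.37, 0.42 and 1.47. The log2 change for LPS was -0.05 (interval -0.85 to 0.75, adjusted p = 1), with a sign that turned to 0.07 without control replicate 2. For overventilation it was 0.75 (1.68-fold, interval -0.05 to 1.55, adjusted p = 0.37), and 0.39 without overventilation replicate 3. F2r was also the only one of the 5 whose overventilation arrays all lay above all LPS arrays, which 5.73% of tested probes did. That difference was 0.80 (interval -0.0028 to 1.60, adjusted p = 0.523), and 0.44 without overventilation replicate 3.

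Plaur had the widest spread. Its LPS arrays gave 4.65, -0.72 and 1.23, an SD of 2.72 that 1.58% of tested probes exceeded, where the median SD over probes was 0.47. The 4.65 of LPS array 1 was the highest value of any of the 5 genes on any array, and the -0.72 of LPS array 2 the lowest. Controls stood at 0.86, -0.42 and -0.43 and overventilation arrays at 2.76, 1.29 and 2.79, so the latter were more alike than the LPS arrays. The log2 change was 2.28 for overventilation (4.85-fold, interval -0.22 to 4.78, adjusted p = 0.386), the 34th highest of all probes. It was 1.72 for LPS (interval -0.78 to 4.22, adjusted p = 1), and 0.25 without LPS replicate 1. Between overventilation and LPS it was 0.56 (interval -1.94 to 3.06, adjusted p = 0.879), 2.02 without LPS replicate 1 and -0.66 without LPS replicate 2.

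Serpinb2, whose product PAI-2 blocks uPA and is well known in activated macrophages, had similar means after LPS and after overventilation. LPS arrays 1 to 3 gave 0.21, 2.56 and 0.83. Overventilation arrays gave 0.48, 1.91 and 1.08, against -0.35, 0.19 and 0.15 in controls. Array 1 of LPS cleared the highest control by a small margin, while array 2 was the highest of its group under both exposures. The log2 changes were 1.20 for LPS (2.30-fold, interval -0.12 to 2.52, adjusted p = 1) and 1.16 for overventilation (2.23-fold, interval -0.17 to 2.48, adjusted p = 0.408). Their difference of -0.04 (interval -1.37 to 1.28, adjusted p = 0.981) leaves room for a difference of more than 2-fold in either direction. Without LPS replicate 2 the LPS change was 0.52, and without overventilation replicate 2 the overventilation change was 0.78.

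Anxa2 gave 1.29, 1.46 and 2.29 after overventilation, and 0.68, -0.02 and -0.66 in controls. LPS arrays gave 0.83, 1.45 and -0.14, of which the first 2 lay above all controls and the third among them. Its means ran from 0 ± 0.67 (SD, n = 3) in controls through 0.72 ± 0.80 after LPS to 1.68 ± 0.53 after overventilation. The log2 change for overventilation was 1.68 (3.20-fold, interval 0.55 to 2.80, adjusted p = 0.213), and F3 and Anxa2 were the genes whose unadjusted intervals for this comparison excluded 0. These intervals use a spread pooled over all 3 groups, so the LPS arrays enter their width. With only overventilation and control fitted, the Plaur change stayed at 2.28 and its standard error fell from 1.12 to 0.54. It fell from 0.65 to 0.45 for F3, 0.50 to 0.45 for Anxa2 and 0.59 to 0.42 for Serpinb2. For F2r it rose from 0.36 to 0.39. The limma adjusted p was then 0.181 for F3 and Plaur. Excluding 0 thus does not rank F3 and Anxa2 above Plaur. For LPS the Anxa2 change was 0.72 (interval -0.41 to 1.84, adjusted p = 1), ranging from 0.35 without LPS replicate 2 to 1.14 without LPS replicate 3. Overventilation exceeded LPS by 0.96 (interval -0.16 to 2.09, adjusted p = 0.569), and by 0.54 without LPS replicate 3.

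**Figure D3:**
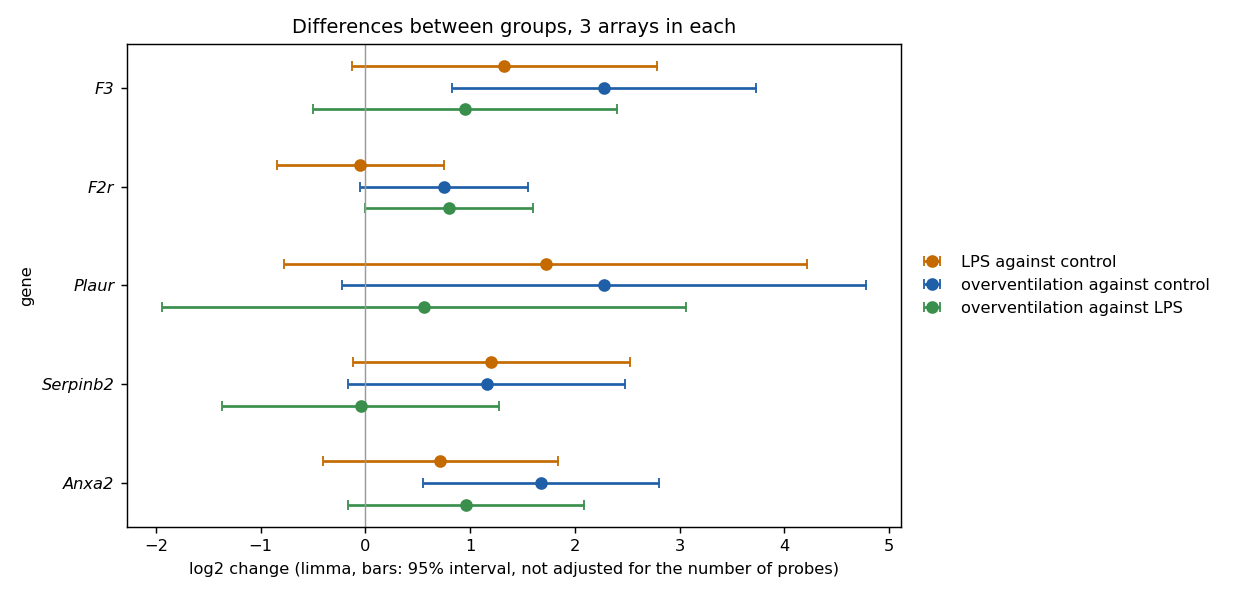
Log2 changes of the 5 genes in the 3 comparisons (x axis) with unadjusted 95% intervals from the limma fit, 3 arrays a group. The intervals of F3 and Anxa2 for overventilation against control lie above 0, and those of every comparison of overventilation with LPS include 0. All intervals use a spread pooled over the 3 groups.

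The order of the group means was control, LPS, overventilation for F3, Plaur and Anxa2, which 22.5% of tested probes shared. No neighbours in these orders differed past the adjusted test, and the LPS arrays overlapped with both other groups in F3, Plaur and Anxa2. A moderated F test over the 3 groups gave adjusted p values of 0.445 for F3, 0.452 for Anxa2, 0.564 for F2r, 0.615 for Serpinb2 and 0.652 for Plaur, with 10.4% of tested probes at an unadjusted p under 0.05 and 0% past the adjusted threshold. By side, the clotting genes F3 and F2r had a median log2 change of 1.51 under overventilation and 0.64 under LPS. With 2 genes this is a midpoint, of 2.28 and 0.75 under overventilation and of 1.33 and -0.05 under LPS. The plasminogen genes Plaur, Serpinb2 and Anxa2, of which Serpinb2 encodes an inhibitor, had medians of 1.68 and 1.20. The sides were not tested against each other. These comparisons share their control arrays.

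**Figure D4:**
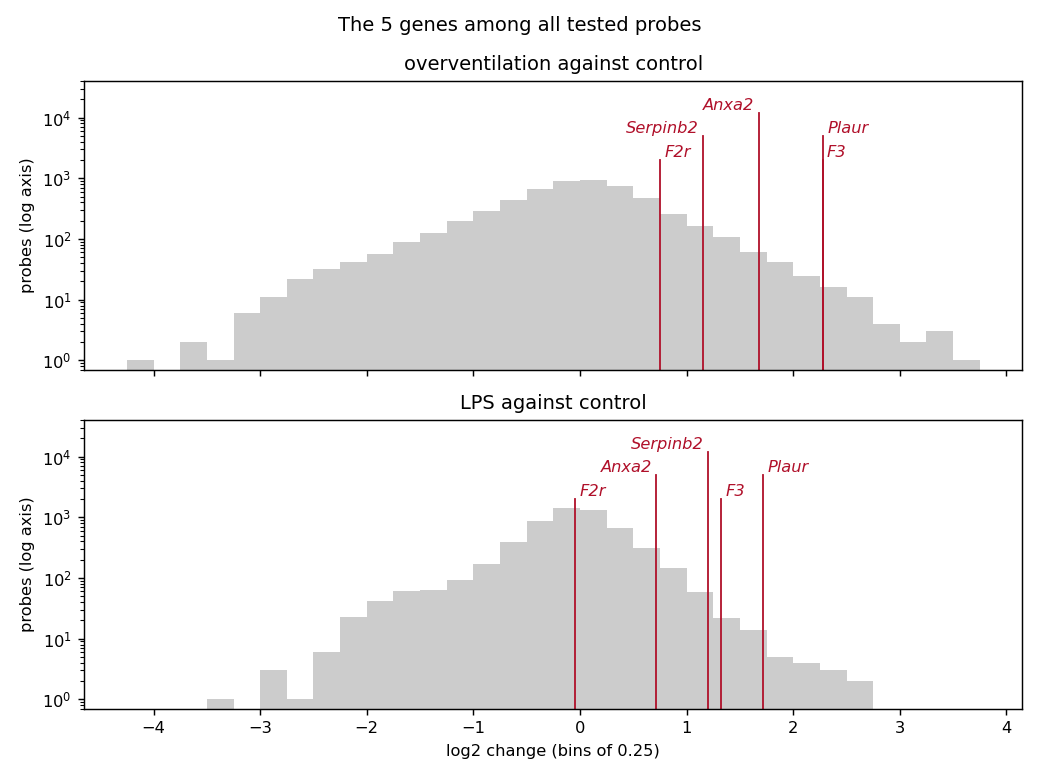
Number of tested probes (log axis) by log2 change in bins of 0.25, for overventilation against control above and LPS against control below, with lines at the 5 genes. F3 and Plaur stand in the upper tail of both panels, while F2r is in the middle of the lower one at -0.05.

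The highest LPS array was not the same for all genes. On LPS array 1 Plaur was at its highest while F3 and Serpinb2 were at the lowest of their group, and on LPS array 2 F3 and Serpinb2 were at their highest while Plaur was at its lowest. Over deviations from the 3 group means on the 9 arrays, the correlation was -0.86 between Plaur and F3 and -0.89 between Plaur and Serpinb2. Between F3 and Serpinb2 it was 0.80. The points share their arrays and their scaling, and the LPS arrays carry most of the spread. Over the raw values of the 9 arrays these correlations were -0.01, -0.22 and 0.83.

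The deposited ratios carry an unknown scaling between arrays, and the count of genes without overlap depends on it. With quantile normalization 4 of the 5 genes lay wholly above the controls after overventilation, Serpinb2 being the exception, against 5.46% of tested probes. With each array set on its own floor, which takes out the differences in floor between arrays, only F3 and Plaur did, against 3.8% of tested probes. That setting also moved the median change of all tested probes to -0.27. F2r on overventilation array 3 then stood at 0.31, below the 0.40 of control array 1, where the scaled value had been 1.47. The log2 changes on that scale were 2.01 for F3, 2.01 for Plaur, 1.41 for Anxa2, 0.89 for Serpinb2 and 0.48 for F2r. For LPS, Serpinb2 overlapped with controls under quantile normalization and with arrays centred on the median, where none of the 5 genes lay wholly above them, against 1.73% and 3.36% of tested probes. The direction for overventilation against control was the same for each of the 5 genes under the scalings tried.

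The wider clotting list holds the coagulation factors, their inhibitors and the thrombin receptors, and 9 of its 30 genes were tested. Of the 7 tested besides F3 and F2r, 6 were on the higher side under overventilation. The median log2 change of the 7 was 0.51, against -0.01 over all tested probes, and 7 genes are too few to tell these apart. Over all 9 tested genes of the list the median was 0.72, and 0.24 without overventilation replicate 3. Tfpi2 and Pros1 lay above all controls after overventilation, against a background of 9.19%. Tfpi2, which encodes a matrix-bound protease inhibitor of the tissue factor pathway inhibitor family, gave 2.34, 2.38 and 1.77 after overventilation and 0.88, 2.30 and 1.21 after LPS. Its controls were 0.84, 0.61 and -1.46, so array 3 of the controls stood far below the others. Its log2 changes were 2.16 (adjusted p = 0.201) and 1.46 (adjusted p = 1). Tfpi2 was the only gene of both lists besides Serpinb2 to lie above all controls after LPS, which 2.24% of tested probes did. Its lowest LPS value of 0.88 was only just above its highest control of 0.84. Whether Tfpi2 stays above them under other scalings was not examined.

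Pros1, the gene of the anticoagulant protein S, gave 0.81, 1.45 and 2.31 after overventilation against -0.60, 0.79 and -0.19 in controls, a change of 1.52 (adjusted p = 0.221). After LPS it was 1.04 (adjusted p = 1). The endothelial anticoagulants thrombomodulin (Thbd) and the protein C receptor (Procr) overlapped with controls, at 0.51 (adjusted p = 0.585) and 0.72 (adjusted p = 0.634) for overventilation and 0.09 and 0.10 for LPS. Factor X (F10) stood at -0.56 and 0.60. Thus the genes highest in this list were the initiator F3, the protease inhibitor gene Tfpi2 and the anticoagulant gene Pros1, none of them past the adjusted test.

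The factors made mainly in liver were mostly at the floor on several or all arrays. Serpinc1 and F12 were tested, however, and overlapped with controls, at 0.35 and 0.01 for overventilation. F2 (prothrombin), F11, F13b, Serpind1, Serpina5 and the platelet thrombin receptor F2rl3 were at it on all 9 arrays. Tfpi, the main inhibitor of tissue factor, and F7, its partner, were at their floor on 7 arrays each and nowhere above the highest floor, so no change can be given for them. The same holds for F2rl2, a further thrombin receptor, which never exceeded the highest floor. F2rl1 was not analysed here.

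The plasminogen list held 7 other tested genes. Of these 3 were on the higher side under overventilation, with a median log2 change of -0.29, against -0.01 over all tested probes. None lay above all controls, which 9.19% of tested probes did, and 7 genes are too few to tell this from that share. Serping1, which encodes the C1 inhibitor that also restrains plasma kallikrein, gave -0.50, -0.78 and -1.22 after overventilation against 0.25, 0.16 and -0.41 in controls. Its change of -0.83 (adjusted p = 0.282) stood beside 0.00 after LPS, and the difference between both exposures was -0.84 (adjusted p = 0.499). Lrp1, the receptor that clears uPA and tPA bound to their inhibitors, gave -1.19, -0.81 and -0.80 against -0.54, -0.27 and 0.81, a change of -0.93 (adjusted p = 0.319). For these 2 genes all overventilation arrays lay below all controls, which 10.5% of tested probes did. After LPS, Lrp1 stood at -0.67 (adjusted p = 1).

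The enzymes that Plaur, Serpinb2 and Anxa2 act on could not be followed. Plg (plasminogen), Plat (tPA) and Plau (uPA) were at the floor on all 9 arrays, as were Kng1 and Thbs1. S100a10, the partner of annexin A2, was not analysed here.

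**Figure D5:**
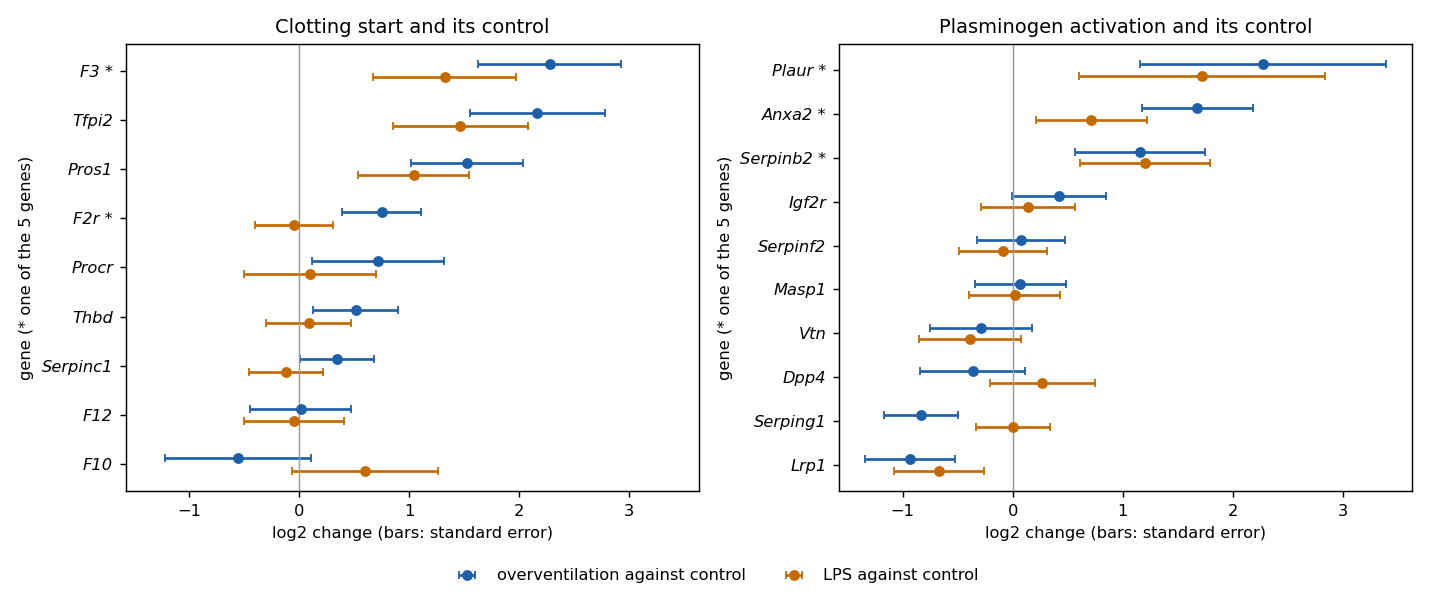
Log2 change against control (x axis, bars give the standard error) of the tested genes of the clotting list on the left and the plasminogen list on the right, for overventilation in blue and LPS in orange; a star marks the 5 genes. On the right Plaur, Anxa2 and Serpinb2 lie above 1 for overventilation and the other 7 genes lie between -0.93 and 0.42.

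The genes most like each of the 5 over the 9 arrays were found by Pearson correlation among 5088 other genes. For F3 they were Akap12 (a kinase scaffold, r = 0.98), the polo-like kinase gene Plk2 (0.96) and Pawr (0.96). Akap12 gave 2.84, 3.40 and 3.68 after overventilation and 0.00, 3.25 and 2.52 after LPS, with LPS array 1 again at the control level. F2r was nearest to Uchl1 (0.98), Dctn2 (0.97) and the transcription factor gene Creb3 (0.97), which stood at 3.15, 2.60 and 1.89 on overventilation array 3 and at no more than 1.06 on any other array. Serpinb2 was nearest to Sorcs2 (0.93), Tor1aip2 (0.93) and Bmp2 (0.92), a growth factor gene, and Anxa2 to Ezr (ezrin, 0.96), the proteasome subunit gene Psmd14 (0.96) and the immediate early gene Ier2 (0.95). No gene reached 0.9 with Plaur, the nearest being the chaperone gene Pdia4 (0.89), 1810073O08Rik (0.88) and Sash3 (0.87). With 9 arrays and so many genes, correlations of this size are found for many pairs, 57 genes exceeding 0.9 with F3 and 84 with F2r.

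Of the markers of lung epithelium, 10 of 11 on the array were tested, Sftpc, Sftpa1 and Scgb1a1 among them. Their median over genes lay between -0.04 and 0.12 on the control arrays, -0.13 and 0.56 after LPS, and -0.44 and 0.82 after overventilation. Monocyte and macrophage markers, 7 of 8 tested with Adgre1 at the floor on all arrays, had medians of -0.38 to 0.13 in controls and -0.20 to 0.16 after overventilation. After LPS they stood at 0.88, 0.81 and -0.53 on arrays 1 to 3, but single markers went different ways. Cd14, an LPS co-receptor, gave -0.29, 1.46 and 0.90, and the scavenger receptor gene Msr1 gave 1.23, -3.25 and -1.72. Lyz2 gave 2.25, 1.39 and -0.53, and Ctss gave 1.86, -0.15 and -1.63. Lyz1 gave 0.41, 0.81 and -0.53, Mrc1 gave -0.12, 0.83 and -0.25, and Fcgr1 gave 0.88, -0.63 and -0.63. Endothelial markers, 6 of 10 tested with Cdh5 and Flt1 at the floor, ran from -0.24 to 0.39 in controls, -0.70 to 0.38 after LPS and -0.10 to 0.39 after overventilation. Neutrophil markers, 4 of 9 tested with Mmp9 at the floor, ran from -0.61 to 0.51, -0.88 to -0.24 and -1.04 to -0.15. Platelet markers, 3 of 7 tested with Itga2b and Gp9 at the floor, ran from -0.57 to 0.31, -0.82 to 0.11 and -0.80 to -0.38. Fibroblast and smooth muscle markers, 6 of 9 tested, ran from -0.38 to 0.32, -0.61 to -0.01 and -0.90 to -0.08. Mesothelial markers, 2 of 3 tested with Msln at the floor, ran from -0.31 to 0.30 in controls, -0.49 to 0.82 after LPS and 0.22 to 1.28 after overventilation. The liver markers Ttr and Ambp were at the floor, and 1 of 4 was tested. Adipose markers, 3 of 3 tested, ran from -1.70 to 0.93 in controls, -5.28 to -1.93 after LPS and -2.21 to -0.36 after overventilation. These medians cover markers whose values lay far from them. Of 42 tested marker genes 4 lay above all controls after overventilation, against 9.19% of tested probes, and 4 below all controls, against 10.5%. Those above were the lysozyme gene Lyz2 of macrophages (log2 change 2.56), Ager of alveolar type I cells (2.27), the platelet gene Pf4 (1.41) and Krt19 of the mesothelial list (1.19). Those below were Napsa of alveolar type II cells (-2.13), the adipose gene Retn (-2.21), the platelet gene Ppbp (-1.13) and Csf3r of neutrophils (-0.92). The part of cell composition in the values of the 5 genes was not tested.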

How the data were processed

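The deposited table holds ratios of 9 samples on 10012 probes, and array maker, scanner and the authors' processing steps were not given in the sources used here. As tested on the values, the authors' ratios were relative to the control geometric mean at every probe (largest deviation of the control log2 mean 2.5e-09), and each array has a floor, seen at 4690 probes where 2 or more arrays share it (tolerance 1e-06, log2). Log2 was taken, values of known level were raised to the highest floor (a ratio of 2.22), and 5710 probes were tested, those above it on 3 or more arrays or with no 2 arrays at a floor. The comparisons used limma 3.58.1 under R 4.3.3 (3 group means, eBayes, two-sided, Benjamini-Hochberg over all probes, threshold 0.05), checked on simulated data. Motifs were searched with Python 3.11.15. Array number limits the precision.

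Gene names come from the platform annotation (8983 probes with 1 symbol, 1 with several, 1028 with none), and all 5 gene IDs were in the RefSeq table. The genes, lists and motifs were chosen with earlier results of these data known. Named were the 5 genes; list genes without overlap with controls (up to 4 highest and 3 lowest a list); fixed activators, inhibitors and receptors; and the 3 genes most correlated with each. F10, F12 and Serpinc1 were named after their values were seen. One probe stood for a gene, that with most arrays above the floor. Deviations from group means of same-numbered arrays correlated at 0.497, 0.247 and 0.199 for LPS and control. Overventilation and control gave 0.508, 0.133 and 0.033, and overventilation and LPS 0.496, 0.211 and 0.038. No label states a pairing, and the main fit used none. Alternatives were other floors, filters and scalings, array weights, fits of 2 groups, the array number as a block, and each array left out.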

Additional observations from a re-analysis of the deposited data

How the results depend on the processing

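Over 19 alternative settings no adjusted p of the 5 genes passed the threshold in any comparison, the lowest being 0.122 for F3 under overventilation. The F test gave no lower value than 0.253. With the replicate block the log2 changes for overventilation were the same, at 2.28 for F3 and 1.68 for Anxa2, with adjusted p values of 0.122 and 0.144, and the block changed no call. Leaving out 1 array gave 0 to 290 called probes for overventilation against control, 0 to 1 for LPS against control, 0 to 226 for overventilation against LPS and 0 to 200 in the F test. The high counts came without overventilation replicate 2 and the counts of 1 without control replicate 3. The sign of F2r after LPS was turned with array weights (0.066) and ran from -0.15 to 0.066 with 1 array left out. For overventilation against LPS, Plaur ran from -0.66 to 2.02 and Serpinb2 from -0.54 to 0.63 with 1 array left out, and array weights gave 0.15 for Serpinb2. An offset instead of a common floor shrinks log2 differences between arrays by its arithmetic. With it the changes for overventilation were 1.16 for F3, 1.14 for Plaur, 0.74 for Anxa2, 0.49 for Serpinb2 and 0.30 for F2r. The exact permutation test of 3 against 3 arrays cannot go below p = 0.1, its value for each of the 5 genes under overventilation. The median of the clotting list for overventilation was 0.24 without overventilation replicate 3, from 0.72. The setting with arrays on their own floors was chosen after seeing the data.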

Other observations

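Serpinb2 had the same order of arrays in each group, with array 1 lowest, then 3, then 2: -0.35, 0.15 and 0.19 in controls, 0.21, 0.83 and 2.56 after LPS, and 0.48, 1.08 and 1.91 after overventilation. With each array set on its own floor this shared order was gone, the controls standing at 0.15, 0.10 and -0.24 and overventilation at 0.51, 2.23 and -0.07 on arrays 1 to 3. Plaur was higher on array 1 than on array 2 in each group, by the values given above. Over all tested probes, deviations on arrays numbered 1 correlated at 0.497 for LPS and control and 0.508 for overventilation and control. For overventilation and LPS the value was 0.496. The share of tested probes with such a shared order was not examined. No label states what the numbers stand for.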
